A study of Sus scrofa with 6 samples.

Results

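The MHC class II antigen presentation genes of the pig, named SLA for swine leukocyte antigen, were followed in the abdominal aorta of pigs on normal chow (NC) and on HFCF, a diet rich in fat, cholesterol and fructose. The set held 10 genes of the 30477 in the deposited table, and its members were matched by name. Of these, 7 were found by their gene name. The other 3 were listed under a gene identifier or a human name and were found by the gene description, the gene number or the identifier: SLA-DQA1 (ENSSSCG00000001456, described as SLA-DQA), SLA-DOB (ENSSSCG00000001459, listed as HLA-DOB) and CD74 (ENSSSCG00000033262). Messenger RNA libraries were sequenced from 3 male Wuzhishan miniature pigs in each group, with 1 library per pig. The diets were fed for 6 months, and the HFCF diet was normal chow with added shortening, egg yolk, cholesterol and fructose. The labels give an age of 3 to 4 months, while the methods describe older pigs at the start. The pigs of both groups were of one breed and sex, no gene was altered, and the samples were whole aortic tissue, so fewer cells of a type and less RNA per cell cannot be told apart.

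MHC class II molecules are pairs of an alpha and a beta chain that carry peptides from endosomes to the surface of antigen-presenting cells, where CD4+ T cells read them. The invariant chain, CD74, escorts new pairs to the endosome and blocks the peptide groove until it is cut away. The DM pair then exchanges the leftover fragment for other peptides, the DO pair restrains DM, and the transactivator CIITA switches the whole group of genes on. Macrophages, dendritic cells and B cells express these genes constantly or after a stimulus, and interferon-gamma can induce them in vascular cells. In atherosclerotic arteries, class II molecules are best known on the macrophages and dendritic cells of the intima.

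Values are FPKM, the fragments of a gene scaled to its exon length and to the mapped reads of the library, so levels can be compared between genes as levels per length. The difference between HFCF and NC pigs was tested on log2(FPKM + 0.1) with limma, using the 15384 genes whose mean reached 0.1 FPKM and Benjamini-Hochberg adjustment across them. A gene was said to rise or fall at an adjusted p under 0.05. Among all tested genes the log2 fold change had a median of 0.32. This median became -0.01 with median-ratio scaling, -0.075 with quantile normalization and 0.08 with TPM rescaling. Changes are therefore also given relative to 0.32. Read totals are unknown, and steps between low FPKM values gave depths of 1.03 to 1.37 relative to the first NC pig. The libraries also differed with diet: FPKM summed to 272207 to 287141 in the NC and 330222 to 338690 in the HFCF pigs, the 13 mitochondrial mRNAs to 12440 to 19457 and 29014 to 44726 FPKM, and 39.9% to 40.6% and 41.4% to 43.9% of genes were at 0. The part of these differences in the class II result was not tested beyond the scalings. The 8 smooth muscle markers, the defining genes of the aortic wall, summed to 15947 to 22733 FPKM in the NC pigs and to 8032 to 12926 FPKM in the HFCF pigs. The first HFCF pig stood apart, since 8.89% of the tested genes were over 2 times the value of both other HFCF pigs there, against 2.93% and 2.92% in the other HFCF pigs.

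All 10 class II genes had their 3 highest values in the 3 HFCF pigs, a separation in that direction that 36.1% of all tested genes shared. In limma, 9 of the 10 rose, against a background of 22.8% of all tested genes, and SLA-DOB missed the threshold. None of the 10 fell, against 6.16% of all tested genes. With the thresholds named by the study, a ratio of group means above 2 and an unadjusted p under 0.05, all 10 passed, against 20.7% of the tested genes. The ratio of group mean FPKM ran from 2.03 for SLA-DOB to 7.84 for SLA-DMB. The median log2 fold change of the 10 genes was 1.67, which was 1.35 above that of all tested genes. The count of 9 fell to 5 without the first, without the second or without the third NC pig, and to 5 after median-ratio scaling. Fewer of all tested genes rose in these settings as well. They numbered 3505 of 15384 in the main fit and 2035 of 15360 after median-ratio scaling. Without NC pig 1, 2 or 3 they numbered 1979 of 15372, 2341 of 15376 and 2814 of 15415. SLA-DQB1, SLA-DMA, SLA-DMB, CD74 and CIITA rose in each of 15 alternatives.

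**Figure D1:**
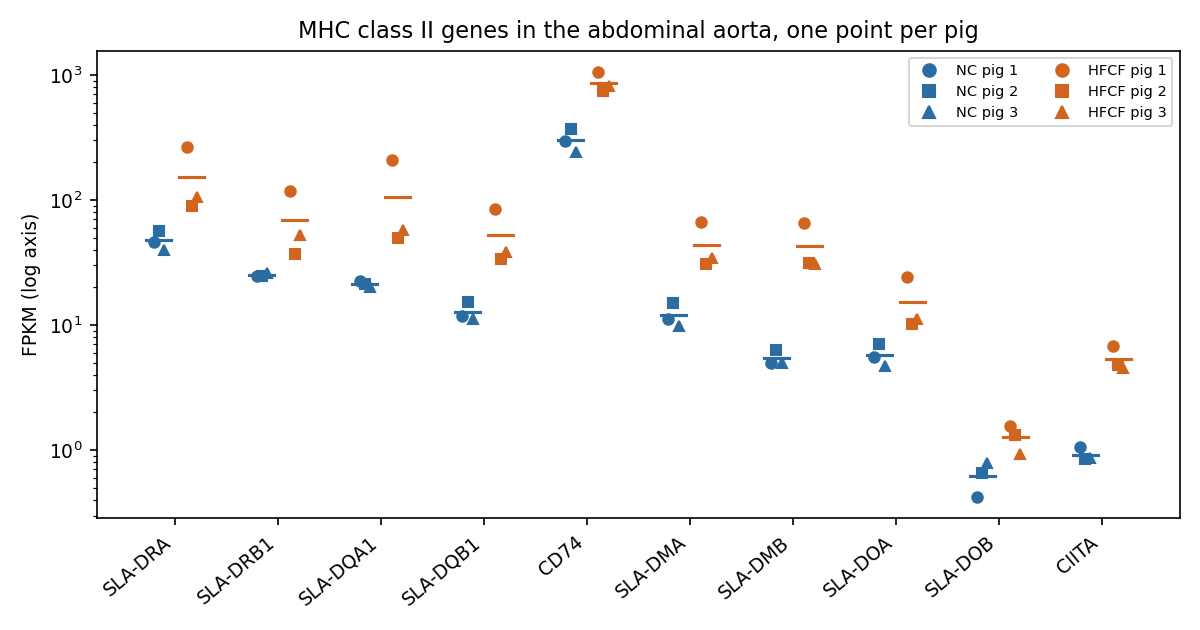
FPKM of the 10 class II genes on a log axis, with one point per pig (blue for NC, orange for HFCF; circle, square and triangle for pigs 1, 2 and 3) and a line at each group mean. The 3 HFCF points of each gene lie above its 3 NC points, and the first HFCF pig is the highest for all 10 genes.

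Among the peptide-presenting chains, SLA-DRA (ENSSSCG00000001453), the alpha chain of the DR pair, was the most abundant. Its levels were 46.3, 56.9 and 40.1 FPKM in the NC pigs and 266, 89.8 and 106 FPKM in the HFCF pigs. The first HFCF pig was far above the other two, which were still above every NC pig. The group means were 47.8 ± 8.50 and 154 ± 97.4 FPKM (SD, n = 3 each), and the log2 fold change was 1.53 (standard error 0.40, adjusted p = 0.0291, limma).

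SLA-DRB1 (ENSSSCG00000001455), the beta chain of DR, had the narrowest NC values, at 24.9, 24.8 and 26.0 FPKM. Its HFCF values were 119, 37.3 and 52.7 FPKM. The second HFCF pig lay closest to the NC group without reaching it. With limma, its log2 fold change was 1.29 (standard error 0.39, adjusted p = 0.0464, limma), 0.96 above the median of all genes, and this was the call that held least often, in 4 of 15 alternatives. The row joins 9 transcripts and its gene number is that of LOC100153139, which RefSeq lists next to SLA-DRB1, so it is uncertain how reads of similar DR beta genes were divided.

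SLA-DQA1, the alpha chain of the DQ pair, was nearly constant in the NC pigs, with 22.5, 21.5 and 20.2 FPKM. In the HFCF pigs it was 210, 49.5 and 58.0 FPKM. The value of the first HFCF pig was 3.91 times the mean of the other HFCF pigs, the widest gap of the 10 genes. It changed by 1.98 on the log2 scale (standard error 0.51, adjusted p = 0.0278, limma) with that pig and by 1.32 (adjusted p = 0.00361, limma) without it.

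SLA-DQB1 (ENSSSCG00000001457), the beta chain of DQ, was 11.9, 15.2 and 11.3 FPKM in the NC pigs and 84.8, 33.6 and 38.3 FPKM in the HFCF pigs. The groups were well separated, and the smallest HFCF value was over 2 times the largest NC value. Its log2 fold change was 1.90 (standard error 0.35, adjusted p = 0.00910, limma), and over 15 alternatives that p ran from 0.00534 to 0.0415. The class II chains differ in sequence between pigs, and whether the animals' alleles aligned equally well to the reference was not tested.

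CD74, the invariant chain, was the most abundant gene of the set in every pig. It was listed at 298, 368 and 241 FPKM in the NC pigs and at 1058, 744 and 811 FPKM in the HFCF pigs. The tissue on normal chow thus already carried a high level, and the 3 HFCF pigs lay closer together than they did for the chains. The means were 302 ± 63.6 and 871 ± 165.6 FPKM (SD, n = 3 each). The log2 fold change was 1.53 (standard error 0.22, adjusted p = 0.00442, limma), equal in size to that of SLA-DRA but with a smaller error.

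SLA-DMB (ENSSSCG00000001469), the beta chain of the peptide exchanger DM, had the greatest change of the 10 genes. The NC pigs had 4.96, 6.33 and 5.02 FPKM and the HFCF pigs 65.5, 31.4 and 31.0 FPKM. No HFCF value came near the NC range. Its log2 fold change was 2.86 (standard error 0.31, adjusted p = 0.00173, limma), 2.54 above the median of all genes, and it was 2.51 without the first HFCF pig.

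SLA-DMA (ENSSSCG00000001470), the alpha chain of DM, started from a higher level, at 11.2, 15.0 and 9.86 FPKM in the NC pigs. It reached 66.5, 31.0 and 34.7 FPKM in the HFCF pigs, which is the level of SLA-DMB there. On the log2 scale it changed by 1.80 (standard error 0.31, adjusted p = 0.00753, limma). The ratio of SLA-DMA to SLA-DMB was 2.26, 2.37 and 1.97 in the NC group, against 1.02, 0.988 and 1.12 in the HFCF group. By FPKM, the mRNA of the alpha chain was thus above that of the beta chain on normal chow, and about equal to it on the HFCF diet. The protein chains were not measured. This ratio was singled out after its values were seen and was not tested.

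SLA-DOA (ENSSSCG00000001472), the alpha chain of the DM inhibitor DO, was 5.57, 7.02 and 4.72 FPKM in the NC pigs. It was 24.4, 10.2 and 11.2 FPKM in the HFCF pigs. The other HFCF pigs were above the NC range by a small margin next to the first. Its log2 fold change was 1.29 (standard error 0.35, adjusted p = 0.0314, limma), and the call held in 7 of 15 alternatives.

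SLA-DOB, the beta chain of DO, had the lowest level of the set, at 0.421, 0.660 and 0.795 FPKM in the NC pigs and 1.56, 1.31 and 0.926 FPKM in the HFCF pigs. The third HFCF pig lay just above the third NC pig. The log2 fold change of 0.92 (standard error 0.33) had an adjusted p of 0.0750 (limma), and in 14 alternatives it stayed between 0.0618 and 0.539. A change of a gene this low is understated on the log2(FPKM + 0.1) scale.

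CIITA (ENSSSCG00000007901), the transactivator, was low in level but changed more than any gene of the set other than SLA-DMB. Its values were 1.06, 0.845 and 0.865 FPKM in the NC pigs and 6.75, 4.75 and 4.51 FPKM in the HFCF pigs. The 2 groups were tight and far apart. The log2 fold change was 2.39 (standard error 0.24, adjusted p = 0.00138, limma), 2.07 above the median of all genes. The row joins 9 transcripts, so the separate promoters known for this gene cannot be told apart.

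**Figure D2:**
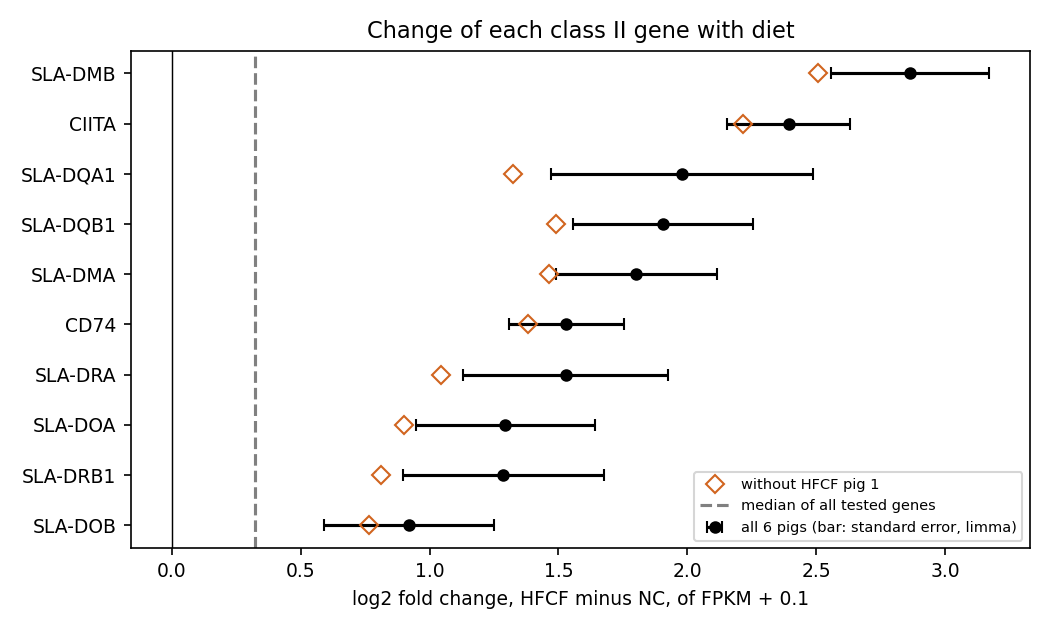
Log2 fold change of each class II gene (HFCF minus NC, of FPKM + 0.1) with its standard error from limma (black), and without the first HFCF pig (open diamonds), against the median of all tested genes (dashed line). Every change lies to the right of the dashed line, from 0.92 for SLA-DOB to 2.86 for SLA-DMB, and each is smaller without that pig.

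By level, the NC order was CD74, SLA-DRA, SLA-DRB1, SLA-DQA1, SLA-DQB1, SLA-DMA, SLA-DOA, SLA-DMB, CIITA and SLA-DOB. The values of SLA-DQB1 and SLA-DMA overlapped between NC pigs, although SLA-DQB1 was the higher in each of the 6 libraries. SLA-DOA and SLA-DMB overlapped as well, and the third NC pig had them in the opposite order. In the HFCF order SLA-DQA1 stood before SLA-DRB1 and SLA-DMB before SLA-DOA. From SLA-DRA down to SLA-DMB each gene overlapped its neighbour between HFCF pigs, but SLA-DRA, SLA-DQA1, SLA-DRB1, SLA-DQB1 and SLA-DMA kept this order within each of them, while the HFCF values of SLA-DOA lay below all those of SLA-DMB. The first HFCF pig had the highest level of all 10 genes. Without it, 9 of the 10 still rose, and their log2 fold changes ran from 0.81 for SLA-DRB1 to 2.51 for SLA-DMB.

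Ratios within a library do not change when a library is scaled by a single factor, and 5 of them were compared. Those of class II chains to macrophage markers and to B2M are given further below. The test was an exact two-sided permutation test, whose smallest possible p is 0.1 for 3 pigs in each group. After Benjamini-Hochberg adjustment over the 5, the smallest p obtained was 0.167. The DM to DO ratio, summed over both chains of each, was 2.69, 2.78 and 2.70 in the NC group, against 5.08, 5.41 and 5.40 in the HFCF group. The 3 HFCF pigs were alike in this ratio, the first included, and all were above the NC pigs. The difference in log2 was 0.96, with an SD of 0.03 among the NC and 0.05 among the HFCF pigs (exact permutation p = 0.1). SLA-DOA made up most of the DO sum.

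The DQ to DR ratio was 0.483, 0.449 and 0.475 in the NC group, against 0.765, 0.654 and 0.605 in the HFCF group. DR chains were thus above DQ chains in every pig, and by less in each of the HFCF pigs than in the NC group. The log2 difference was 0.52 (exact permutation p = 0.1). The ratio of CD74 to the alpha chains SLA-DRA and SLA-DQA1 was 4.34, 4.70 and 4.00 in the NC group, against 2.22, 5.34 and 4.93 in the HFCF group. Here the groups overlapped (exact permutation p = 1), and the log2 difference of -0.16 became 0.24 without the first HFCF pig, whose ratio was the lowest of the 6 libraries.

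**Figure D3:**
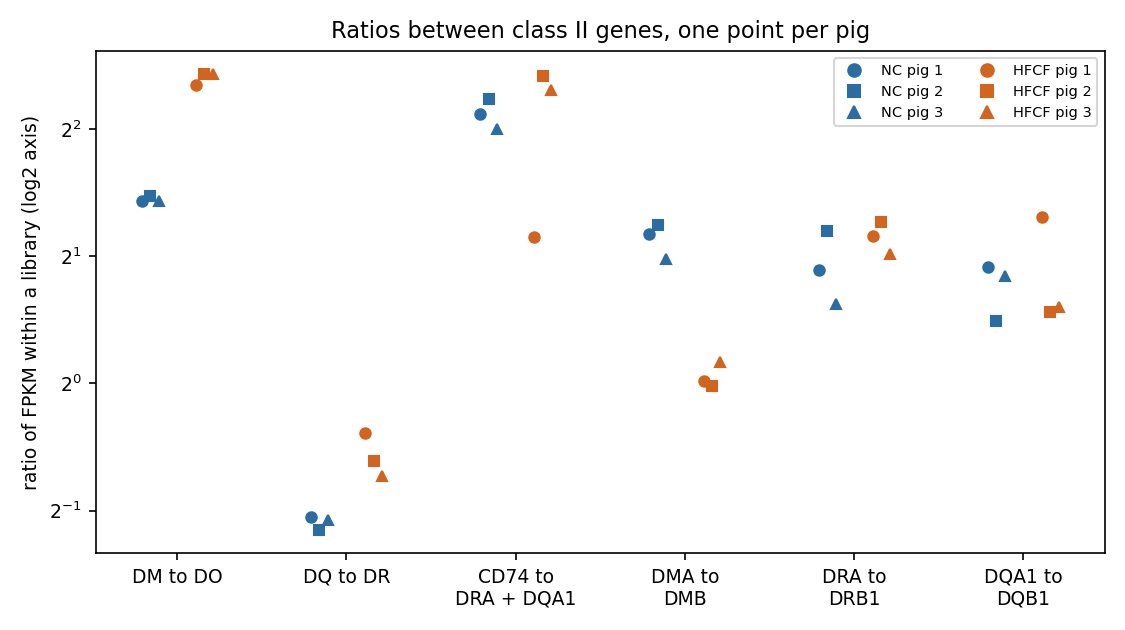
Ratios of FPKM between class II genes within each library on a log2 axis, with one point per pig in the colours and shapes of the groups and pigs. DM to DO and DQ to DR are higher in all HFCF pigs (DM to DO from 5.08 to 5.41, against 2.69 to 2.78 in NC pigs), DMA to DMB is lower in them, and the other 3 ratios overlap.

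The summed macrophage, B cell and T cell markers were higher in each HFCF pig, as the class II genes were, and those of smooth muscle were lower. Of the 8 smooth muscle markers 5 fell, beside 6.16% of all tested genes. Of 15 alternatives, the call held in 8 for ACTA2, 9 for CNN1, 13 for MYH11, 14 for SMTN and 15 for DES. TAGLN, LMOD1 and SYNPO2 did not pass, and TAGLN and LMOD1 overlapped between groups. Of 12 macrophage markers, 11 rose, against 22.8% of all tested genes. Their summed level was 48.5 to 60.2 FPKM in the NC pigs and 704 to 1824 FPKM in the HFCF pigs, highest in the first. CD68, a lysosomal protein of macrophages, was 3.65, 4.11 and 5.67 FPKM in the NC pigs and 261, 114 and 98.0 FPKM in the HFCF pigs. MARCO, the marker that did not pass, was listed at 0 in the third HFCF pig, and the defining markers were above 0 throughout. The sum of the 4 DR and DQ chains was 97.6 to 118 FPKM in the NC pigs and 210 to 680 FPKM in the HFCF pigs. Divided by the macrophage sum, it was 2.06, 2.44 and 1.62 in the NC group, against 0.373, 0.264 and 0.362 in the HFCF group, a log2 difference of -2.61 (exact permutation p = 0.1). This ratio was lower in each HFCF pig. In every pig, C1QA, C1QB, C1QC and CD68 made up most of the macrophage sum. CD14, MRC1 and MARCO changed by 1.71, 1.31 and 1.68 on the log2 scale, within the 1.29 to 1.98 of the DR and DQ chains. The other macrophage markers changed by 2.56 (CSF1R) or more. The part of macrophage number in the class II result was not tested.

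For dendritic cells, 2 of the 7 markers found rose, a share near the 22.8% of all tested genes, and the sum was 74.1 to 102 FPKM in the NC pigs and 61.3 to 122 FPKM in the HFCF pigs, most of it IRF8. BATF3, a transcription factor of dendritic cells that other leukocytes also use, rose from 0.148, 0.194 and 0.249 to 2.23, 2.56 and 2.40 FPKM (log2 fold change 3.08, adjusted p = 0.000937, limma). FLT3 and XCR1, which define dendritic cells more closely, were under 0.4 FPKM in all pigs and did not pass. ZBTB46 was 2.40, 4.02 and 3.66 FPKM in the NC pigs and 2.25, 2.97 and 1.63 FPKM in the HFCF pigs. Its log2 fold change of -0.54 did not pass (adjusted p = 0.214, limma). IRF8 and CCR7 did not pass either, at -0.20 and 0.64 on the log2 scale. The other gene that rose, FCER1A, held its call in 4 of 15 alternatives, and the count was 1 without any one pig other than the second HFCF pig.

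Of the B cell markers 9 were found, 8 were tested and 3 rose, beside 22.8% of all tested genes. Their sum was 7.15 to 11.7 FPKM in the NC pigs and 38.8 to 59.9 FPKM in the HFCF pigs. CD79A, the signalling chain of the B cell receptor, accounted for most of it, at 5.64, 9.87 and 9.57 FPKM in the NC pigs and 38.0, 36.0 and 34.1 FPKM in the HFCF pigs. MS4A1 and PAX5, which define B cells, were listed at 0 in all pigs but the first HFCF pig, at 1.28 and 0.141 FPKM there. T cell markers summed to 1.11 to 1.76 FPKM in the NC pigs and to 19.5, 4.34 and 4.64 FPKM in the HFCF pigs. In limma 3 of 9 rose, beside 22.8% of all tested genes. That count was 2 without the first HFCF pig, 1 without the second or the third NC pig and 0 without the first NC pig. The part of B and T cells in the class II result was not tested. Endothelial markers had 0 calls among 7 in limma at an adjusted p under 0.05 and 2 at an unadjusted one, with overlapping sums of 109 to 227 and 96.2 to 256 FPKM. Adipocyte markers had 0 calls among 6 in limma at an adjusted p under 0.05. They summed to 190.3, 297 and 37.6 FPKM in the NC pigs, lowest in the third, and to 88.5 to 133 FPKM in the HFCF pigs. ADIPOQ, PLIN1 and CIDEC each passed in 1 of 15 alternatives.

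**Figure D4:**
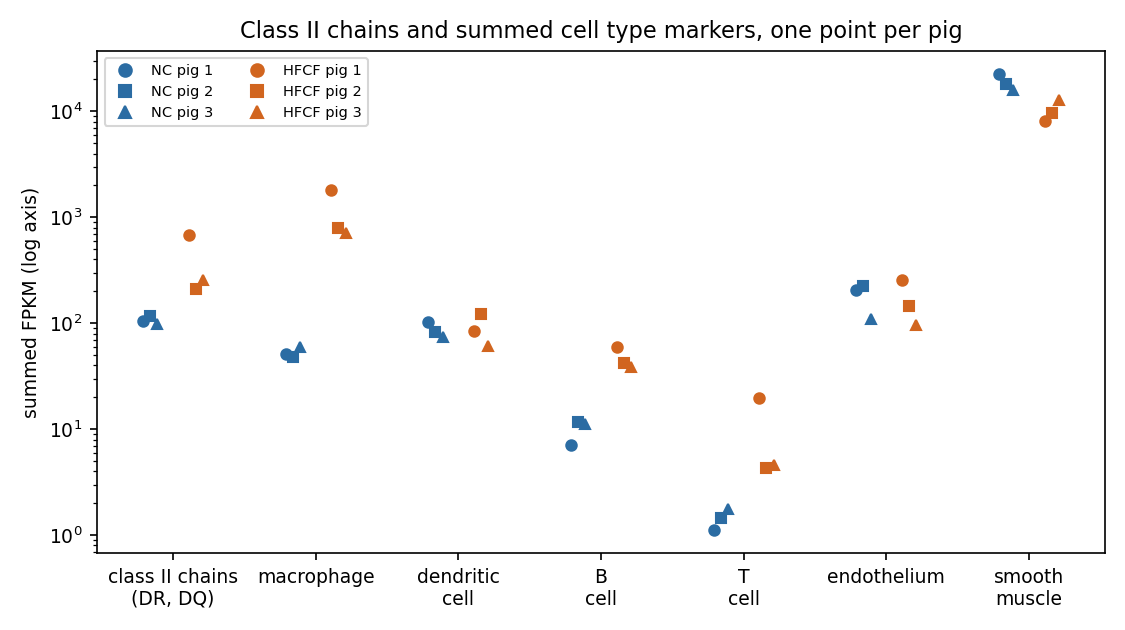
Summed FPKM of the DR and DQ chains and of 6 marker lists on a log axis, with one point per pig. The chains and the macrophage, B cell and T cell sums are higher in every HFCF pig, the smooth muscle sum is lower, and the dendritic cell and endothelial sums overlap between the groups.

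Of the 7 factors that bind class II promoters, 1 rose, a share below the 22.8% of all tested genes. RFXANK, a subunit of the RFX complex, rose from 6.98, 8.17 and 9.82 to 24.2, 24.9 and 26.4 FPKM (log2 fold change 1.60, standard error 0.16, adjusted p = 0.00159, limma). The other RFX subunits, RFX5 with 0.37 and RFXAP with 0.75 on the log2 scale, did not pass. NFYA, NFYB and NFYC, the CCAAT-binding NF-Y subunits, and CREB1 did not pass either, with log2 fold changes of 0.90, 0.26, -0.24 and 0.59. The median of the list was 0.59, 0.27 above that of all genes.

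Interferon-gamma (IFNG), the main inducer of CIITA outside professional antigen-presenting cells, was near the floor, at 0, 0 and 0.237 FPKM in the NC pigs and 0.306, 0 and 0.301 FPKM in the HFCF pigs. Of its signalling arm, the receptor chains IFNGR1 and IFNGR2 rose by 0.82 and 1.04 and the feedback inhibitor SOCS1 by 1.41 on the log2 scale. The call of IFNGR2 held in 14 of 15 alternatives, that of IFNGR1 in 8 of 15 and that of SOCS1 in 11 of 14, and IFNGR1 did not pass without the first HFCF pig (adjusted p = 0.0514, limma). JAK1, JAK2 and IRF1 did not pass.

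The endosomal enzymes that cut antigen and the invariant chain rose in 6 of 9 cases, beside 22.8% of all tested genes. Their median log2 fold change was 1.70, which was 1.38 above that of all tested genes. CTSS, cathepsin S, which makes the late cuts in the invariant chain, was 1.87, 2.29 and 3.18 FPKM in the NC pigs and 123, 56.3 and 31.7 FPKM in the HFCF pigs (log2 fold change 4.60, adjusted p = 0.00153, limma). IFI30, the endosomal thiol reductase, rose from 7.85, 12.8 and 9.13 to 97.2, 52.4 and 49.1 FPKM (log2 fold change 2.69, adjusted p = 0.00202, limma). CTSD, CTSH, CTSC and CTSZ also rose, by 2.84, 1.73, 1.70 and 1.51 on the log2 scale. CTSB, CTSL and LGMN had log2 fold changes of 0.81, 0.67 and 1.34 and did not pass. The cathepsins also serve general lysosomal digestion.

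Among 10 genes of class II traffic and turnover, 3 rose, a share near the 22.8% of all tested genes, and the median log2 fold change was 0.07 above that of all genes. MARCHF1, the ubiquitin ligase that removes class II molecules from the surface, was 0.224, 0.303 and 0.195 FPKM in the NC pigs and 0.670, 3.50 and 4.72 FPKM in the HFCF pigs. The pig with the highest class II levels had the least MARCHF1 of the HFCF group. Its log2 fold change was 2.81 (standard error 0.67, adjusted p = 0.0212, limma), and the call held in 9 of 15 alternatives. MARCHF8, its close relative, was 7.55 to 8.61 FPKM in the NC and 8.21 to 8.79 FPKM in the HFCF pigs. LAMP2, a lysosomal membrane protein, rose by 1.14 on the log2 scale, and AP3B1, an adaptor subunit, by 0.94 with a call that held in 5 of 15 alternatives. The list's count was 1 without the first NC, the second NC or the second HFCF pig, and 1 after quantile normalization.

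Genes of the signals exchanged between class II-bearing cells and T cells were read next. Of 12 genes, 9 were tested and 5 rose, beside 22.8% of all tested genes. The 5 that rose were genes of the presenting cell, as is ICOSLG, which did not pass (log2 fold change 0.98, adjusted p = 0.0588, limma). CD86, a ligand of CD28, rose from 0.205, 0.265 and 0.406 to 10.1, 3.59 and 2.53 FPKM (log2 fold change 3.59, adjusted p = 0.00417, limma), and CD80, which also binds CD28, rose by 2.61. CD40, the receptor for T cell help, rose by 1.17 on the log2 scale. The inhibitory ligands CD274 and PDCD1LG2 rose by 1.75 and 3.04 on the log2 scale. On the T cell side, CD4, the co-receptor for class II, was 0.0277, 0 and 0.0203 FPKM in the NC pigs and 1.97, 0.105 and 0.0779 FPKM in the HFCF pigs and did not pass. CD40LG, the ligand of CD40, did not pass, with 1.46 on the log2 scale (adjusted p = 0.0584, limma), nor did LAG3 at 1.19. The difference between the sides was not tested. CD28, CTLA4 and ICOS were too low to be tested.

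MHC class I, whose peptides come from the cytosol, was set beside class II. Of 12 genes in the list 6 were found, and 4 of them rose, beside 22.8% of all tested genes: B2M, SLA-8, TAP1 and TAP2. SLA-7 was 2.70, 7.35 and 10.1 FPKM in the NC pigs and 5.55, 21.7 and 14.8 FPKM in the HFCF pigs. It overlapped between groups and did not pass (log2 fold change 1.04, adjusted p = 0.246, limma). The call of TAP1 held in 7 of 15 alternatives and was lost without the first HFCF pig (adjusted p = 0.0668, limma). B2M, the light chain of class I, was 56.7, 87.5 and 111 FPKM in the NC pigs and 348, 299 and 289 FPKM in the HFCF pigs (log2 fold change 1.92, adjusted p = 0.00311, limma). The sum of DR and DQ chains divided by B2M was 1.86, 1.35 and 0.878 in the NC group, against 1.96, 0.703 and 0.884 in the HFCF group. The groups overlapped, the log2 difference was -0.29 (exact permutation p = 0.8), and it was 0.013 without the second HFCF pig. NLRC5, the class I counterpart of CIITA, was 2.57, 2.05 and 5.31 FPKM in the NC pigs and 13.0, 8.45 and 4.82 FPKM in the HFCF pigs, which overlapped and did not pass (adjusted p = 0.0594, limma).

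In the RefSeq annotation of the assembly Sscrofa11.1, the 8 SLA genes of the set lie in one region, with the class I processing genes TAP1, TAP2, PSMB8 and PSMB9 and the bromodomain gene BRD2 between SLA-DOB and SLA-DMB. The methods name an earlier build, so only the order is given. The immunoproteasome subunits PSMB8 and PSMB9 had log2 fold changes of 1.54 and 2.08 and rose with TAP1 (1.07) and TAP2 (1.41). BRD2 was 40.1, 41.6 and 39.9 FPKM in the NC pigs and 41.9, 38.2 and 39.9 FPKM in the HFCF pigs. PSMB8, PSMB9 and BRD2 were singled out after their values were seen. BRD2 lies next to SLA-DMB, and its groups overlapped, with a difference of -0.02 on the log2 scale (standard error 0.12, adjusted p = 0.919, limma).

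**Figure D5:**
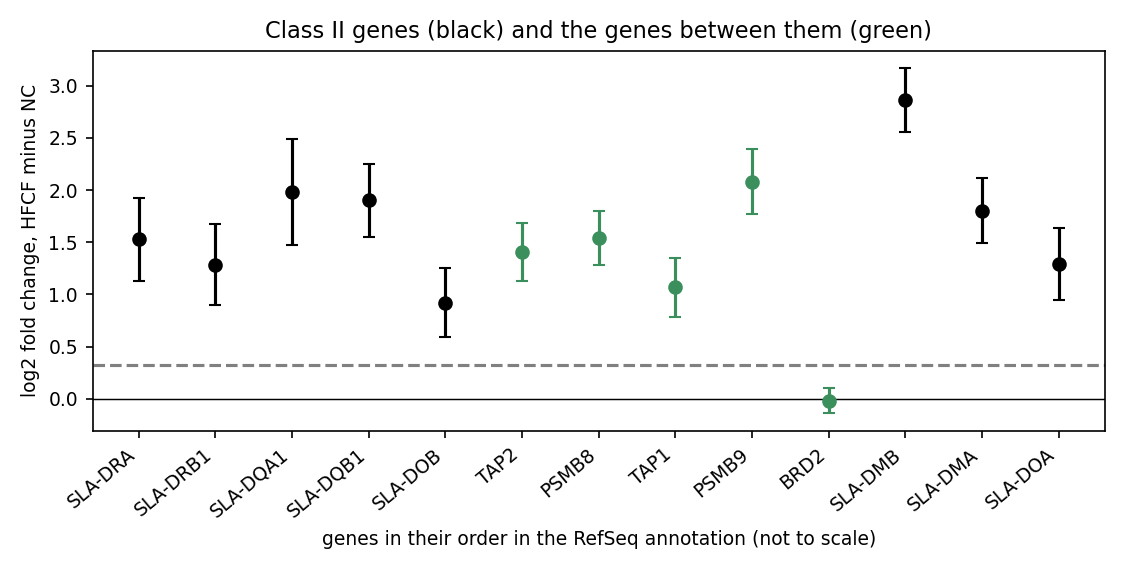
Log2 fold change (HFCF minus NC) with standard error for the 8 SLA class II genes (black) and the named genes between them that were matched (green) in RefSeq order, not to scale, with the median of all tested genes as a dashed line. BRD2 at -0.02 is the one gene below the dashed line, and SLA-DMB at 2.86 the highest.

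Beyond the set, 41 genes carried the deposited KEGG term for antigen processing and presentation. Of these 37 were tested and 11 rose in limma, beside 22.8% of all tested genes, and 0 fell, beside 6.16%. The 5 largest rises were those of CTSS, IFI30, B2M, CANX and the class I chain row ENSSSCG00000001229. CANX, the chaperone calnexin, was 8.59, 8.13 and 10.2 FPKM in the NC pigs and 16.2, 46.4 and 42.4 FPKM in the HFCF pigs, lowest among the HFCF pigs in the first. The class I row was 22.4, 22.2 and 25.3 FPKM in the NC pigs and 92.9, 64.2 and 80.5 FPKM in the HFCF pigs, with a log2 fold change of 1.75. The median of the 37 was 0.81, against 0.32 for all tested genes and 1.67 for the class II set.

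The genes whose pattern over the 6 libraries was most like the mean class II pattern were ranked by the root mean square difference of centred log2 values among 11112 genes. The closest were GATM, an enzyme of creatine synthesis (0.10), PIP4K2A, a lipid kinase (0.10), the unnamed ENSSSCG00000049524 (0.12), the adaptor SH3BP2 (0.12) and DOCK11, an exchange factor of small GTPases (0.13). They were followed by RAP2A (0.14), the lipopolysaccharide co-receptor CD14 (0.14), SFT2D1 (0.14), CPEB2 (0.14) and CTSC (0.15). CD14 was 3.45, 3.59 and 3.14 FPKM in the NC pigs and 21.1, 7.14 and 9.60 FPKM in the HFCF pigs. Within the set, SLA-DMA and SLA-DQB1 followed the mean pattern most closely, both within 0.11, and SLA-DMB and SLA-DOB least closely, at 0.56 and 0.55.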

How the data were processed

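Abdominal aorta RNA of 3 NC and 3 HFCF pigs was compared. Per the labels, reads were processed with cutadapt 1.9, FastQC and HISAT2, and per the methods they were assembled with StringTie. The authors deposited FPKM values for 30477 genes, which were used as deposited, with 0.0001 read as 0. Depth is unknown, so precision rests on the spread among pigs. Values were tested as log2(FPKM + 0.1) for genes with a mean of at least 0.1 FPKM, with limma 3.58.1 in R 4.3.3 (diet as the only factor, eBayes with trend, Benjamini-Hochberg adjustment), and the script was tested on simulated data. Ratios within a library were compared with exact two-sided permutation tests.

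The members, lists and tests were chosen with earlier results of these data known. The genes named were all 10 members, genes of the fixed lists, the 5 largest called changes in each direction of the KEGG term, and the 10 genes of at least 1 FPKM most like the members. The replicate pigs are separate animals, and no file column was left unmapped. List genes not found were SLA-1, SLA-2, SLA-3, SLA-5, SLA-6, TAPBP, CLEC9A, ITGAX, CD1A, CD1B, CLEC10A, CR2, CD7 and EGFL7. The alternatives were pseudocounts of 1 and 0.01, other filters, 3 scalings, eBayes without trend, a replicate block, the study's thresholds and each pig left out. Promoter motifs were planned, but no sequence was analysed here. One result of the interferon-gamma list, and the count of that list, are not reported here.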

Additional observations from a re-analysis of the deposited data

How the results depend on the processing

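The direction of all 10 members held in 149 values over the alternatives, of which 28 lost their call, all of them of SLA-DRA, SLA-DRB1, SLA-DQA1 and SLA-DOA. The count of 9 members that rose was 5 after median-ratio scaling, 6 after rescaling to TPM, 7 after quantile normalization and 7 without a filter, and it ranged from 5 to 9 when single pigs were left out (5 without any one NC pig). Over all tested genes, 4453 were called, 2772 with the replicate block and 2421 to 3596 when single pigs were left out, the lowest without the first NC pig. Calls that were higher in the HFCF group made up 78.7% (3505 higher and 948 lower), 50.7% after median-ratio scaling (2035 and 1982), 49.5% after quantile normalization (1748 and 1782) and 59.1% after rescaling to TPM (2228 and 1539). Leaving out single pigs, the log2 difference of CD74 to the alpha chains ranged from -0.39 to 0.24 (0.24 without the first HFCF pig) and that of class II to B2M from -0.73 to 0.013 (0.013 without the second HFCF pig), so both can change sign. DM to DO stayed between 0.94 and 0.99, DQ to DR between 0.42 and 0.59 and class II to macrophage markers between -2.77 and -2.45. The replicate numbers are not stated to pair pigs, and deviations of same-numbered pigs from their group means correlated at 0.02, -0.08 and -0.07 across genes. With the replicate block 7 members rose, SLA-DRB1 and SLA-DOA losing their calls. The causes of these shifts were not tested. Genes under about 1 FPKM, such as SLA-DOB, IFNG and CD4, rest on few fragments, and with 3 pigs a group the ratio tests could not pass 0.05.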
